A study of Danio rerio with 4 samples.

Results

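Marker genes of endothelium and of the vascular niche, 10 in all, were followed in blood progenitors of zebrafish larvae. They were chosen by symbol from the deposited table, and 10 of 10 were found among its 30838 rows. The genes were the selectin gene sele, the water channel gene aqp1a.1, the scavenger receptor genes stab1 and stab2, the vascular endothelial growth factor (VEGF) receptor genes kdrl and flt4, the cadherin gene cdh5, the angiopoietin receptor pair tie1 and tek, and the mannose receptor gene mrc1a. RNA was read from smu07 mutants in 2 libraries and from siblings in 2 libraries. All 4 came from AB strain larvae of 4 days post fertilization that carried the cd41:eGFP reporter, in which fluorescence follows the promoter of the integrin gene itga2b. Larvae were dissociated, cells with low eGFP were sorted as hematopoietic stem and progenitor cells (HSPCs), and about 500 cells per library were amplified. The series is about slc20a1b, a phosphate transporter gene, and asks how HSPCs of the mutants differ from those of siblings. The design text calls the control cells wild type, whereas the labels call them siblings. The sources used here do not give the lesion, whether larvae were pooled, the genotypes among the siblings, or whether the numbered samples of a group were separate clutches, so each p-value measures only the spread between these libraries.

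Endothelial cells line vessels and are recognised by VE-cadherin, VEGF receptors and the Tie receptors at their surface. In the larva, HSPCs lodge in a venous plexus of the tail, the caudal hematopoietic tissue, where endothelial cells wrap around them. Scavenger receptors of the stabilin and mannose receptor families mark venous, sinusoidal and lymphatic endothelium, and in mammals stabilin-1 and the mannose receptor are also made by macrophages. E-selectin is a cell surface lectin that catches rolling leukocytes through fucosylated glycans.

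Levels are given in TPM, an abundance scaled for gene length and for the library's total. Reads behind each value were recovered from the table and totalled 28275393 and 29949711 per mutant library and 25104330 and 26600582 per sibling library. Differences are on the log2(TPM + 1) scale, mutant minus sibling, with the standard error (SE) of the limma model. That scale understates the change of low genes. A gene was called at a Benjamini-Hochberg adjusted p under 0.05 over the 12073 genes that averaged 1 TPM or more. The slc20a1b transcript was read at 49.3 and 53.8 TPM in mutants and 39.3 and 42.4 TPM in siblings, which checks no label while the lesion is not given. The gate's own gene, itga2b, stood at 23.5 and 19.3 TPM in mutants and 50.8 and 66.9 TPM in siblings. More rows were above 0 in the mutant libraries, 23881 and 23978, than in the sibling libraries, 19528 and 19811, and the part of this gap in the values of the lowest genes was not tested. In bulk RNA, fewer cells of a type and less RNA per cell cannot be told apart.

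The levels of the 10 genes spanned several orders of magnitude. Only sele and aqp1a.1 were above 10 TPM, tek and stab1 lay mostly between 1 and 7 TPM, and tie1, flt4, stab2, kdrl and cdh5 stayed under 0.2 TPM in every library. The summed level of the 10 genes was 42 and 46.3 TPM in the mutant libraries, against 113 and 93.2 TPM in the sibling libraries. The groups did not overlap, and the exact two-sided permutation test gave p = 0.333, the smallest that 2 libraries against 2 allow. Together sele and aqp1a.1 made up most of this sum, with sele at 38.4 and 33.1% in mutants against 43 and 55.6% in siblings, and aqp1a.1 at 28.9 and 40.9% in mutants against 49.4 and 40.2% in siblings. Without these 2 genes the sum of the other 8 was 13.8 and 12.1 TPM in the mutant libraries and 8.59 and 3.97 TPM in the sibling libraries. The summed markers of leukocytes and HSPCs, 12 genes, stood at 975 and 868 TPM in mutants and 1435 and 1383 TPM in siblings. In that sum lcp1 alone held 521 and 417 TPM in mutants and 889 and 793 TPM in siblings. Of 11 tested genes of this list 2 were called higher, 5 lower and 4 were not called. Of the 5 lower genes 1 averaged under 1 TPM in mutants and passed the filter only through the siblings. Over all genes tested 9.91% were called higher and 18.6% lower. Of the genes by which endothelium is recognised, cdh5, kdrl, flt4 and tie1 were listed near 0, whereas tek was read at 2.58 to 6.74 TPM. The genes are therefore described one by one and not as markers of 1 cell type.

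**Figure D1:**
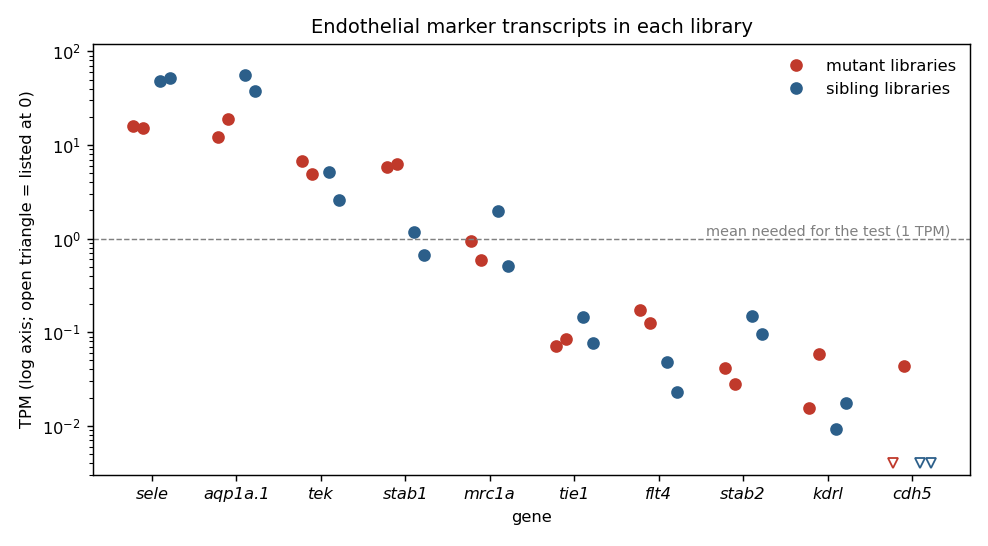
TPM of each of the 10 genes (log axis) in the 2 mutant libraries (red) and the 2 sibling libraries (blue), with open triangles for values listed at 0. Mutant points lie below sibling points for sele, aqp1a.1 and stab2 and above them for stab1 and flt4, and 5 genes sit far under the 1 TPM mean needed for the test.

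**Figure D2:**
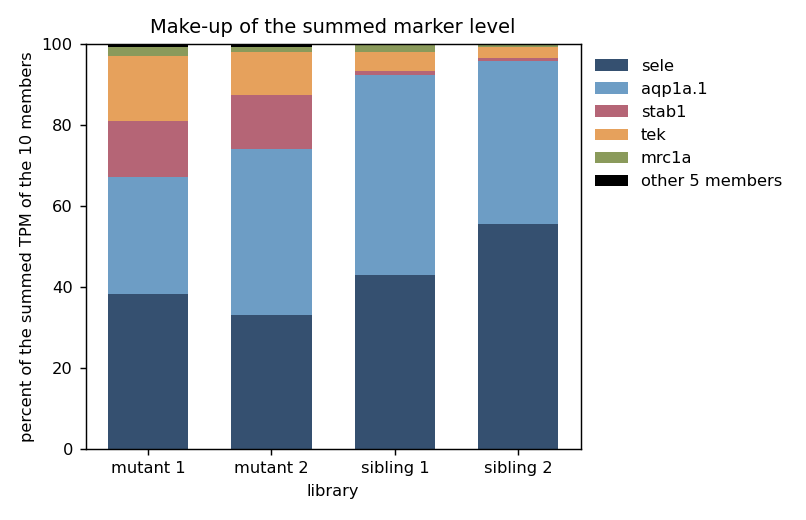
Percent of the summed TPM of the 10 genes that each gene held in each library, bars from 0 to 100. The share of stab1 was 13.7 and 13.4% in mutants, against 1.04 and 0.715% in siblings.

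Of the 10 genes, 5 passed the filter on low values and were tested. Of these, 1 was called higher in mutants (stab1), 2 were called lower (sele and aqp1a.1), and 2 were not called (tek and mrc1a). Over all genes tested 28.5% were called, 9.91% higher and 18.6% lower. The split was 1196 higher and 2247 lower, and it was 1397 and 1656 under median-of-ratios scaling and 1325 and 1316 under quantile normalization. Every count of limma calls given here needs both mutant libraries, since over all genes 0 were called higher and 4 lower without mutant replicate 1, and 0 higher and 3 lower without mutant replicate 2. The 5 tested genes had differences of -1.61 (sele), -1.53 (aqp1a.1), -0.26 (mrc1a), 0.53 (tek) and 1.88 (stab1). Their median is thus the value of mrc1a alone, beside -0.14 over all genes tested. The libraries of the groups did not overlap for 3 of the 5, which is near the background, since 70% of all genes tested did not overlap, 26% with both mutants higher and 44% with both mutants lower. For all 10 genes the number was 5, beside 60.5% of the rows above 0 in any library. With no filter on low values 9.37% of rows were called, and of the 10 genes sele was called lower and stab1 higher.

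The cadherin and VEGF receptor genes were close to the limit of detection. Transcripts of kdrl, which encodes the main VEGF receptor of zebrafish endothelium, were read 2 and 8 times in the mutant libraries and 1 and 2 times in the sibling libraries. These counts correspond to 0.0155 and 0.0588 TPM in mutants and 0.00916 and 0.0175 TPM in siblings, and the groups overlapped. The VE-cadherin gene cdh5, whose product joins endothelial cells to each other, had 0 and 3 reads in mutants, and it was listed at 0 in both siblings. At this depth 3 reads of cdh5 correspond to 0.046 TPM in mutant replicate 1, and to 0.0544 and 0.0519 TPM in siblings, so levels up to these are allowed by a count of 0. The lymphatic and venous VEGF receptor gene flt4 had 17 and 13 reads in mutants and 4 and 2 reads in siblings, or 0.172 and 0.124 TPM in mutants against 0.0477 and 0.0228 TPM in siblings. Both mutant libraries were above both siblings for flt4. With no filter on low values its limma adjusted p was 0.0999 (difference 0.15, SE 0.04) and it was not called. The related receptor gene kdr read 1.05 and 0.915 TPM in mutants and 0.754 and 0.14 TPM in siblings, and flt1 was listed at 0 in all 4 libraries.

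A value near 0 in this table need not mean that the transcript was absent. Of 30 genes that most of these cells use, looked up after the values were seen, 4 stayed under 2 TPM in every library. They were rpl13a, a ribosomal protein gene, eno1a, a glycolytic enzyme gene, the purine salvage gene hprt1 and the leukocyte actin regulator gene coro1a. The level of eno1a was 0.039 and 0.0369 TPM in mutants and 0.0153 and 0.0439 TPM in siblings, and coro1a stood at 0.315 and 0.673 TPM in mutants and 0.178 and 0.185 TPM in siblings. Low levels of kdrl, cdh5, tie1, flt4 and stab2 are therefore given as listed, and what kept the 4 common genes low was not tested.

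**Figure D3:**
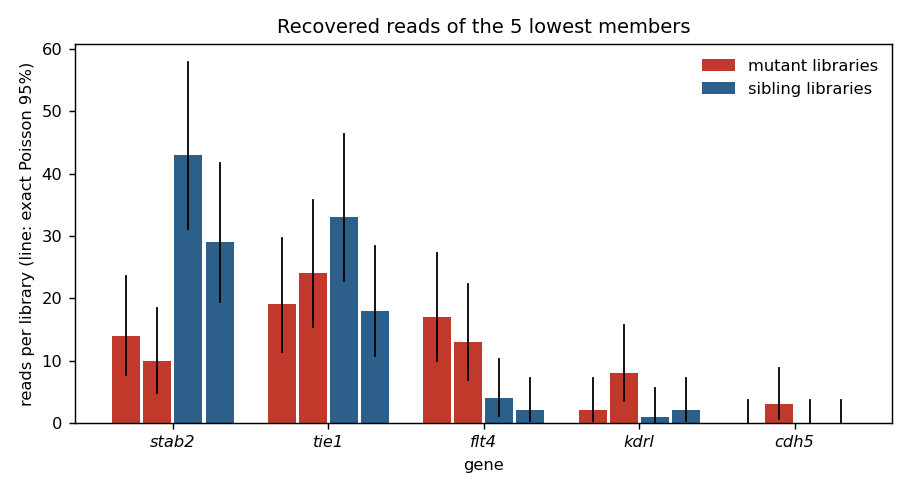
Recovered reads of stab2, tie1, flt4, kdrl and cdh5 in each library (bars from 0) with exact Poisson 95% intervals, which cover counting error only. No library held more than 43 reads of any of these genes, and cdh5 had 3 reads in 1 mutant library and 0 in the other 3.

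The Tie receptors differed from each other by more than 30 times in level. The gene tek encodes Tie2, the receptor that binds angiopoietins, and in the mouse it is also found on blood stem cells, whereas tie1 encodes a partner receptor of endothelium. Transcripts of tek stood at 6.74 and 4.9 TPM in the mutant libraries and 5.12 and 2.58 TPM in the sibling libraries. Behind these were 583 and 448 reads in mutants and 375 and 198 reads in siblings. The groups overlapped, since mutant replicate 2 lay under sibling replicate 1. The difference of 0.53 (SE 0.31, 95% interval -0.22 to 1.28, limma adjusted p = 0.233) was not called, and its interval reaches past a 2-fold rise. Without sibling replicate 1 it was 0.92, and without sibling replicate 2 it was 0.14. The level of tie1 was 0.0717 and 0.0857 TPM in mutants and 0.147 and 0.0765 TPM in siblings, from at most 33 reads. The ratio of tek to tie1 was 94 and 57.2 in mutants and 34.8 and 33.7 in siblings.

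The angiopoietin ligand gene angpt1, whose product activates Tie2, was far more abundant than either receptor gene. It fell to 34.5 and 33.3 TPM in mutants, against 43.2 and 51 TPM in siblings (difference -0.46, SE 0.13, limma adjusted p = 0.0456). This call ended under median-of-ratios scaling (adjusted p = 0.080), quantile normalization (0.242) and voom (0.0686) and without sibling replicate 2 (0.0838). The ligand gene angpt2b was listed at 0 in all 4 libraries. Of 11 tested genes of the VEGF and angiopoietin list, 2 rose, 1 fell and 8 did not pass, with a median of 0.32. The share called over all genes tested was 9.91% higher and 18.6% lower. The rises were angptl4, a secreted regulator of lipoprotein lipase (47.6 and 47.9 TPM in mutants, 13.5 and 22.4 TPM in siblings), and the adaptor gene grb10a (3.16 and 3.62 TPM in mutants, 1.36 and 1.77 TPM in siblings).

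The adhesion gene sele was lower in mutants, with little spread inside either group. Its level was 16.1 and 15.3 TPM in the mutant libraries and 48.4 and 51.8 TPM in the sibling libraries. Behind these were 1626 and 1634 reads in mutants and 4141 and 4639 reads in siblings. The groups were separated by more than 30 TPM, and each pair agreed within 4 TPM. The mutant mean was 15.7 ± 0.558 TPM and the sibling mean 50.1 ± 2.37 TPM (SD, n = 2 each), a ratio of 0.314. The difference was -1.61 (SE 0.12, 95% interval -1.91 to -1.31, limma adjusted p = 0.00316), the 45th smallest p of the genes tested. Without mutant replicate 1 the difference was -1.65 and without mutant replicate 2 it was -1.58, with adjusted p = 0.0972 and 0.0883 and unadjusted p = 0.000583 and 0.000678, so the call then ended. Within 4 libraries, the genes whose centred log2 profiles lay closest to that of sele were pdk2b, a pyruvate dehydrogenase kinase gene, at a Euclidean distance of 0.060, and cldnd1a at 0.068. The level of pdk2b was 41.6 and 37.8 TPM in mutants and 119 and 131 TPM in siblings. These 2 genes were picked as the nearest of 12073 tested genes on 4 values each, so a small distance does not show a shared role.

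Genes of selectin ligands were measured beside sele. The gene selplg encodes PSGL-1, a leukocyte ligand of selectins, and it fell to 161 and 175 TPM in mutants, against 270 and 279 TPM in siblings (difference -0.71, SE 0.09, limma adjusted p = 0.00712). The hyaluronan receptor gene cd44b fell to 32.3 and 26.6 TPM in mutants, against 62.4 and 65.4 TPM in siblings. The sialomucin gene podxl fell to 3.04 and 2.41 TPM in mutants, against 5 and 8.12 TPM in siblings. In contrast glg1a, whose product is known in mammals as E-selectin ligand 1, rose to 21.2 and 17.5 TPM in mutants, against 11.5 and 12.6 TPM in siblings. Of the 12 tested genes in this list 1 rose, 3 fell and 8 did not pass, with a median of -0.027. The share called over all genes tested was 28.5%, with 9.91% higher and 18.6% lower. The leukocyte selectin gene sell stood at 2.55 and 3.82 TPM in mutants and 5.72 and 5.2 TPM in siblings (limma adjusted p = 0.0766). The fucosyltransferase gene fut7, which builds selectin-binding glycans, stood at 26.7 and 29.6 TPM in mutants and 27.8 and 23.3 TPM in siblings, and selp at 5.56 and 3.3 TPM in mutants and 4.03 and 5.12 TPM in siblings. Both genes overlapped between the groups. The thrombocyte markers, in which selp is counted, differed in the same libraries: 7 of 12 tested fell and 1 rose. Their sum was 804 and 967 TPM in mutants and 1986 and 1817 TPM in siblings, none being listed at 0. In that sum blf alone held 555 and 755 TPM in mutants and 1637 and 1414 TPM in siblings. The gate's own gene itga2b was among the 7 that fell. The part of the thrombocyte markers in the fall of sele was not tested.

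The water channel gene aqp1a.1 was also lower in mutants, with a wider spread. In mammals its counterpart is a channel of red cells and of endothelium. It stood at 12.1 and 18.9 TPM in the mutant libraries and 55.7 and 37.5 TPM in the sibling libraries. Behind these were 299 and 493 reads in mutants and 1163 and 819 reads in siblings. The higher mutant value was under the lower sibling value. The mutant mean was 15.5 ± 4.81 TPM and the sibling mean 46.6 ± 12.9 TPM (SD, n = 2 each), a ratio of 0.333. The difference was -1.53 (SE 0.27, 95% interval -2.18 to -0.88, limma adjusted p = 0.013). This call was lost when low genes were kept in (adjusted p = 0.059), without mutant replicate 1 (-1.23, adjusted p = 0.14) and without mutant replicate 2 (-1.83, adjusted p = 0.097). In the RefSeq annotation of GRCz12tu the span of a noncoding gene overlaps aqp1a.1. Exons and strand were not compared, so whether reads of the pair can be told apart was not tested. The nearest profiles were those of tmod4, a tropomodulin gene, at a distance of 0.18 and slc6a13l at 0.21, with the limit given for sele.

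Its neighbour and close paralog aqp1a.2, likewise a water channel gene, fell to 3.2 and 4.49 TPM in mutants, against 9.78 and 9.57 TPM in siblings (difference -1.15, SE 0.20, limma adjusted p = 0.0131). Reads of such a pair may be shared, so the split between them is uncertain. The ratio of aqp1a.1 to aqp1a.2 was 3.8 and 4.21 in mutants and 5.7 and 3.91 in siblings. Among 6 tested aquaporin genes outside the 10, 0 rose, 1 fell (aqp1a.2) and 5 did not pass (limma), with a median of 0.019. The erythroid markers were lower too: 11 of 16 tested fell and 0 rose, while over all genes tested 18.6% fell and 9.91% rose. Their sum was 730 and 838 TPM in mutants and 2094 and 1508 TPM in siblings, a ratio of 0.435. In that sum hbbe1.1 alone held 76.9 and 128 TPM in mutants and 768 and 231 TPM in siblings. The globin gene hbae1 stood at 169 and 146 TPM in mutants and 149 and 133 TPM in siblings. Both hbae1 and hbbe2 overlapped between the groups and were not called. None of the 21 was listed at 0 in all 4 libraries. However, gata1a was read only in sibling replicate 1, at 0.017 TPM. Transcripts of alas2, ba1, hbbe3 and hbaa1 were read only in mutants, at 1.36 TPM or less. The part of the erythroid markers in the fall of aqp1a.1 was not tested.

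Of the stabilin genes stab1 was higher in mutants, and stab2 was too low to be tested. The scavenger receptor gene stab1 stood at 5.77 and 6.22 TPM in the mutant libraries and 1.17 and 0.666 TPM in the sibling libraries. Behind these were 956 and 1089 reads in mutants and 164 and 98 reads in siblings. Every mutant value was more than 4 times every sibling value. The mutant mean was 5.99 ± 0.318 TPM and the sibling mean 0.917 ± 0.355 TPM (SD, n = 2 each), a ratio of 6.53. The difference was 1.88 (SE 0.23, 95% interval 1.33 to 2.43, limma adjusted p = 0.00645). With a sibling mean under 1 TPM, stab1 passed the filter through the mutant libraries. The size depended on the scale, at 2.63 with a pseudocount of 0.1 and at 2.84 with voom on the recovered reads. Without mutant replicate 1 it was 1.93 (adjusted p = 0.119) and without mutant replicate 2 it was 1.83 (adjusted p = 0.105), and the call ended. A noncoding gene overlaps each stabilin gene in the same annotation, with the same limit. The paralog stab2, a receptor that clears hyaluronan in sinusoidal endothelium, stood at 0.0411 and 0.0278 TPM in mutants and 0.149 and 0.096 TPM in siblings. Behind these were 14 and 10 reads in mutants and 43 and 29 reads in siblings. Both mutant values lay under both sibling values, yet with no filter on low values the limma adjusted p was 0.142 (difference -0.12, SE 0.04). The ratio of stab1 to stab2 was 140 and 224 in mutants and 7.84 and 6.94 in siblings.

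The mannose receptor gene mrc1a, which marks venous and lymphatic endothelium in zebrafish, passed the filter by the smallest margin, with a mean of 1 TPM and the last rank of the 12073 genes. It read 0.944 and 0.593 TPM in mutants and 1.95 and 0.512 TPM in siblings. Behind these were 104 and 69 reads in mutants and 182 and 50 reads in siblings. The siblings differed from each other more than the groups did, and the difference was -0.26 (SE 0.37, 95% interval -1.16 to 0.63, limma adjusted p = 0.615). It turned to 0.22 without sibling replicate 1 and was -0.75 without sibling replicate 2. Only sibling replicate 1 was above 1 TPM, so mrc1a passed the filter only through that library. The value of -0.75 sets the mutants against that library alone. A protein-coding gene and a noncoding gene overlap mrc1a. The paralog mrc1b rose to 9.51 and 10.7 TPM in mutants, against 3.03 and 5.47 TPM in siblings (difference 1.12, SE 0.26, limma adjusted p = 0.0269).

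Other scavenger receptors were tested beside these. Of 10 tested genes in the list of scavenger receptors of endothelium and macrophages, 5 rose, 0 fell and 5 did not pass (limma). The share called over all genes tested was 9.91% higher and 18.6% lower. The median of the list was 0.69 against -0.14 over all genes. Besides mrc1b the 5 rises included mertka, which encodes a receptor for dying cells (12 and 9.95 TPM in mutants, 3.27 and 2.96 TPM in siblings). They also included the lipoprotein receptor gene lrp1ab (5.39 and 4.24 TPM in mutants, 1.9 and 1.64 TPM in siblings). Another was scarb2b (8.58 and 7.45 TPM in mutants, 3.09 and 4.26 TPM in siblings). The remaining rise was marco (49.8 and 36.2 TPM in mutants, 14.4 and 25 TPM in siblings), which is also counted among the macrophage markers. The most abundant of the list, scarb2a, stood at 37.1 and 44 TPM in mutants and 41.9 and 50.1 TPM in siblings. The lymphatic marker gene lyve1b was listed at 0 in all 4 libraries.

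Macrophage markers were higher in the same libraries as stab1. Of 18 tested, 13 rose and 0 fell, while over all genes tested 9.91% rose and 18.6% fell. Of the 13, 1 averaged under 1 TPM in siblings and passed the filter only through the mutants. The 13 include marco, counted above among the scavenger receptors, and csf1ra, also counted among the niche genes. The sum of the 24 genes was 2322 and 2298 TPM in mutants and 1112 and 945 TPM in siblings. The ratio of these summed levels was 2.25. The complement genes c1qa and c1qc, commonly used macrophage markers, were listed at 0 in every library. Of 9 tested keratinocyte markers 9 rose, but 5 of them averaged under 1 TPM in siblings and so passed the filter only through the mutants. The list had a sum of 403 and 243 TPM in mutants and 51.2 and 42.3 TPM in siblings, with krt15 and epcam listed at 0. The 13 fibroblast and stromal markers summed to 24 and 16.6 TPM in mutants and 3.19 and 24.3 TPM in siblings, where twist1a alone held 23 TPM of sibling replicate 2. Without twist1a the sum of the other 12 was 18.9 and 12.8 TPM in mutants and 2.31 and 1.24 TPM in siblings, with col1a1a listed at 0. Of 4 tested 3 rose, and all 3 averaged under 1 TPM in siblings, so the filter admitted them only through the mutants. The part of these cell types in the rise of stab1 was not tested.

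**Figure D4:**
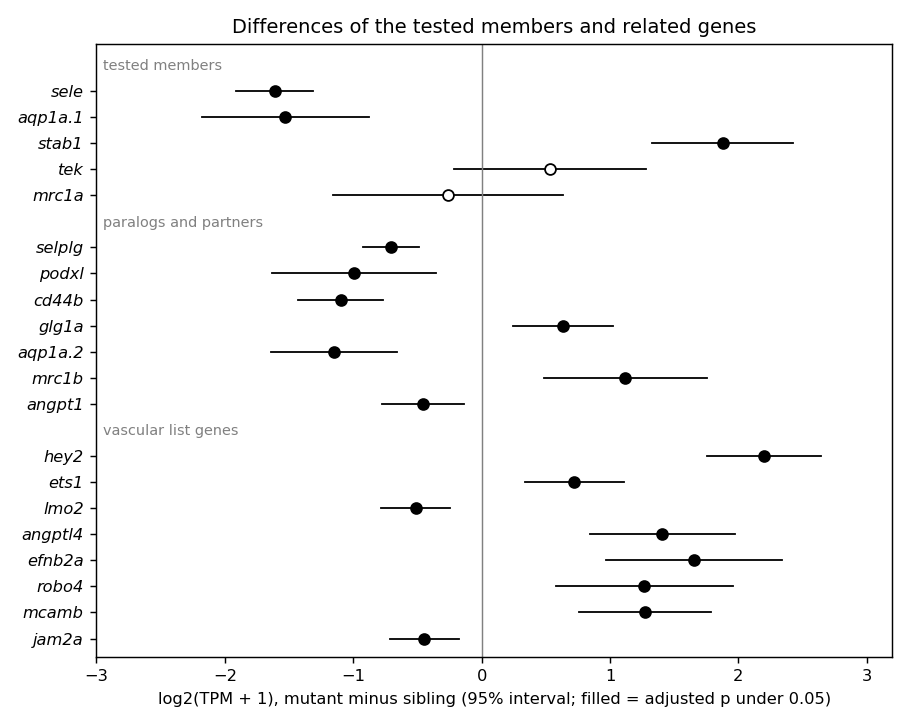
Difference in log2(TPM + 1), mutant minus sibling, with 95% intervals from limma for the 5 tested members, for paralogs and partners, and for genes of the wider vascular lists, filled where the adjusted p was under 0.05. Intervals of sele and aqp1a.1 lie below 0, that of stab1 above 0, and those of tek and mrc1a cross 0.

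Genes of the wider vascular program moved in both directions. The 7 lists on vascular regulators, VEGF and angiopoietins, junctions, scavenger receptors, niche signals, selectin ligands and aquaporins held 162 rows, of which 94 were tested, and 7 of the rows were also on the blood or other cell type lists. Of the 94 genes 21 rose and 12 fell, so 35.1% were called. Of all genes tested 28.5% were called, 9.91% higher and 18.6% lower. The median of the 94 was 0.27, beside -0.14 over all genes tested. The calls of these lists need both mutant libraries. Among 17 tested transcription factor genes 2 rose and 3 fell, with a median of 0.34. The Notch target gene hey2, an arterial factor, rose to 51.4 and 38 TPM in mutants, against 8.34 and 9.38 TPM in siblings (difference 2.2, SE 0.18, limma adjusted p = 0.00334). The gene ets1, shared by endothelium and lymphoid cells, rose to 27 and 25.3 TPM in mutants, against 17.4 and 13.8 TPM in siblings. The factor gene tal1, which serves both blood and endothelial precursors, fell to 65.2 and 67.4 TPM in mutants, against 136 and 154 TPM in siblings. Its partner gene lmo2 fell to 105 and 122 TPM in mutants, against 159 and 165 TPM in siblings. The fall of lmo2 was -0.29 and did not pass under quantile normalization (adjusted p = 0.0934). The remaining fall of these factor genes was erg, at 4.9 and 4.94 TPM in mutants and 9.29 and 17.3 TPM in siblings (limma adjusted p = 0.0277).

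Of 14 tested junction, arterial and venous genes 4 rose, 1 fell and 9 did not pass, with a median of 0.16. The share called over all genes tested was 9.91% higher and 18.6% lower. The arterial ligand gene efnb2a rose to 10 and 11 TPM in mutants, against 1.81 and 3.77 TPM in siblings. The guidance receptor gene robo4, known in endothelium and in mouse blood stem cells, rose to 11.8 and 10.8 TPM in mutants, against 2.88 and 5.74 TPM in siblings. The adhesion gene mcamb rose to 3.37 and 3.95 TPM in mutants, against 0.914 and 0.932 TPM in siblings. With a sibling mean under 1 TPM, mcamb passed the filter only through the mutant libraries. The remaining rise was pecam1, at 4.34 and 2.99 TPM in mutants and 1.38 and 1.49 TPM in siblings (limma adjusted p = 0.0333). The junction gene jam2a, the most abundant of the list, fell to 39.8 and 39.4 TPM in mutants, against 56.2 and 52.7 TPM in siblings (difference -0.45, SE 0.11, limma adjusted p = 0.031). That fall did not pass under median-of-ratios scaling (adjusted p = 0.0709), quantile normalization (0.259) or voom (0.0774).

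Niche ligand and receptor genes were called in both directions. Of 24 tested genes 7 rose, 3 fell and 14 did not pass, with a median of 0.45. The share called over all genes tested was 9.91% higher and 18.6% lower. The most abundant was the chemokine receptor gene ccr9a, at 810 and 777 TPM in mutants and 731 and 569 TPM in siblings, which did not pass (limma adjusted p = 0.126). It passed with voom (adjusted p = 0.0437). Its difference was 0.3 with all 4 libraries and 0.48 without sibling replicate 1. The gene cxcr4b, a receptor gene through which HSPCs sense Cxcl12, fell to 335 and 340 TPM in mutants, against 856 and 1000 TPM in siblings. Its paralog cxcr4a rose to 34.2 and 41.5 TPM in mutants, against 10.7 and 11.5 TPM in siblings (difference 1.68, SE 0.15, limma adjusted p = 0.0039). The macrophage growth factor receptor gene csf1ra rose to 23 and 22.6 TPM in mutants, against 4.96 and 8.79 TPM in siblings, and klf6a, which encodes a transcription factor, to 177 and 165 TPM in mutants, against 62 and 89.6 TPM in siblings. The niche ligand genes cxcl12a and cxcl12b, made by stromal and endothelial cells, had at most 5 reads in any library. Other ligand genes of the list were abundant. Of these, cxcl8a rose to 265 and 275 TPM in mutants, against 61.3 and 120 TPM in siblings (limma adjusted p = 0.0135). In contrast csf3b fell to 348 and 233 TPM in mutants, against 449 and 667 TPM in siblings (limma adjusted p = 0.0366). The genes kitlgb and vcam1b, a stem cell factor and an endothelial adhesion molecule, were listed at 0 in all 4 libraries. Their paralogs were read, and kitlga rose to 3.22 and 3.18 TPM in mutants, against 1.53 and 0.518 TPM in siblings (limma adjusted p = 0.0392). The level of vcam1a was at most 0.584 TPM in any library.

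**Figure D5:**
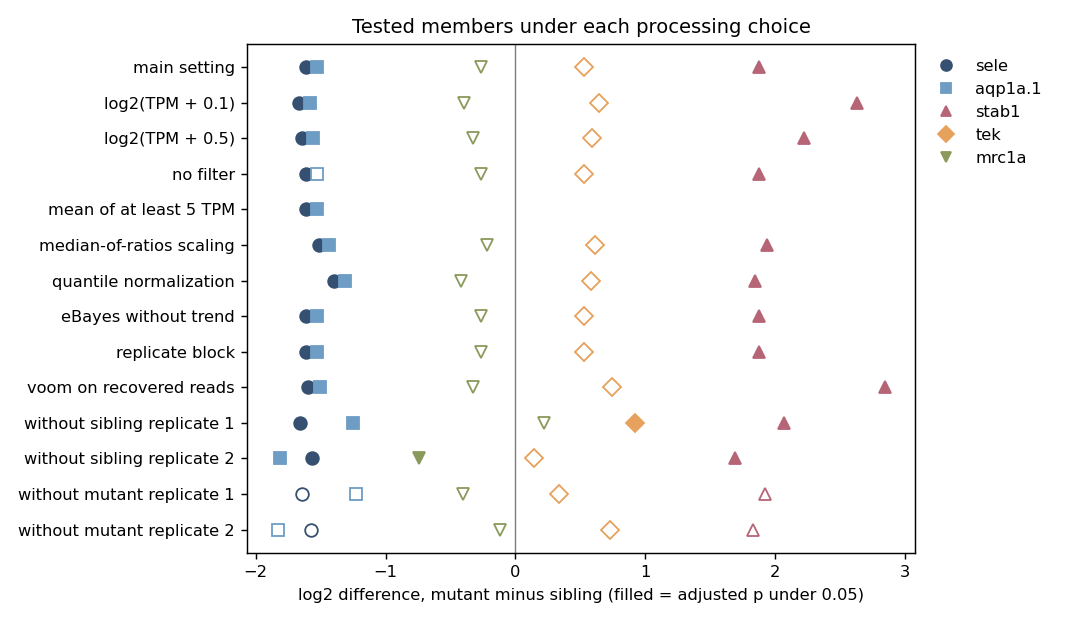
Difference in log2 value, mutant minus sibling, of the 5 tested members (x axis) under each processing choice (rows), filled where the adjusted p was under 0.05. The signs of sele, aqp1a.1, stab1 and tek were the same in every row that has them, mrc1a crossed 0 without sibling replicate 1, and none of the 5 was called when a mutant library was left out.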

How the data were processed

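The authors deposited 1 table of TPM values, 1 column for each of the 4 libraries. The submitters' processing notes name STAR, featureCounts, FastQC, DESeq2 and the GRCz11 build. Versions, annotation release, strand setting and the treatment of shared reads were not given in these sources. The RefSeq annotation of GRCz12tu was used for names and neighbours only. In it the spans of other genes overlap aqp1a.1, stab1, stab2, cdh5 and mrc1a, and an antisense RNA overlaps tie1. Exons and strand were not compared, so whether their reads can be told apart was not tested.

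In R 4.3.3, limma 3.58.1 (lmFit, then eBayes with trend) was run on log2(TPM + 1) of 2 mutant against 2 sibling libraries, for the genes averaging 1 TPM or more. Because the deposited TPM are whole reads divided by length, reads were recovered as the smallest whole numbers that fit a whole gene length (tolerance 0.0001 reads), for 99.99% of rows above 0. On simulated libraries 92.5% of 3904 genes returned exactly the simulated reads, so a count can be too small. Reads are copies from amplification with no molecular identifiers, so intervals cover counting error only. Listed symbols matched in 253 cases by name, 11 by synonym, and 27 found no row.

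Named are all 10 members, up to 4 called genes with the smallest p and the most abundant gene of each vascular list, the 2 nearest profiles of members above 5 TPM, and paralogs. For the lists of other cell types, to which the same rule applied, mainly counts and summed levels are printed, with few single genes. The genes kdr, kitlga, sell, fut7, selp, cxcl8a, csf3b, pecam1, erg, marco, hbae1 and hbbe2 were chosen after their values were seen. So were flt1, lyve1b and others listed at or near 0. Members and lists were chosen with earlier results of these data known. Alternatives were other pseudocounts, filters and scalings, no trend, a replicate block, voom on recovered reads and leaving out each library. Their effect is given in the closing part.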

Additional observations from a re-analysis of the deposited data

How the results depend on the processing

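The calls of sele, aqp1a.1 and stab1 rest on having both mutant libraries, the pair with the smaller spread. Over all genes tested the median absolute log2 difference was 0.15 within the mutant pair and 0.228 within the sibling pair. With 1 library left out, the difference stayed between -1.66 and -1.56 for sele. It stayed between -1.83 and -1.23 for aqp1a.1 and between 1.69 and 2.07 for stab1. Leaving out sibling replicate 2 set mrc1a against the only library that carried it past the filter. As 1 library was left out, the number of members called changed too. Over all genes the counts ranged from 0 to 2044 higher and from 3 to 3206 lower, and over the wider vascular lists from 0 to 33 and from 0 to 18. The limma counts were lowest without a mutant library, where the lone mutant is assumed to vary like the siblings. The unadjusted p was then under 0.05 for 3 of 5 members, for 2899 and 3129 of all genes, and for 23 and 27 of the 94 vascular genes. The difference of mrc1a ranged from -0.75 to 0.22 and reversed without sibling replicate 1. With a mean of at least 5 TPM, 0 members were called higher, since stab1 was not tested, and 778 genes in all. With no filter 1 member was called lower, and 1124 genes in all were lower, while the vascular lists had 10 higher and 6 lower. Quantile normalization gave 1325 higher and 1316 lower genes in all, against 1196 and 2247, and 7 lower vascular genes. Median-of-ratios scaling gave 1397 and 1656. Voom gave 32 higher vascular genes, and eBayes without trend gave 7 lower ones. The replicate block, fitted because numbers recur in both groups, also gave 7 lower vascular genes and changed the call of no tested member. Deviations of same-numbered libraries correlated at -0.046 across genes. With 2 libraries per group this value cannot show whether the numbers pair them. With at most 8 reads of kdrl and 3 of cdh5 per library, a difference in these genes was not detectable, and what kept their counts low was not tested. The summed level differed by -58.8 TPM, and by -53.2 TPM under median-of-ratios scaling, which was added after seeing the data.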
